A study of Mus musculus with 25 samples.

Results

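The enzymes that write and erase DNA methylation are themselves encoded by genes that carry CpG methylation, and 7 of those genes were read here: Dnmt1, Dnmt3a, Dnmt3b, Uhrf1, Tet1, Tet2 and Tet3. Their CpGs were taken from 1 window per gene on the mouse build mm9, each set around the gene and its start region and between 31 and 120 kb long. CpGs and tiles are named below for the window they lie in. Where each gene ends was not determined, so some of them may lie outside the gene or in a neighbouring one. A CpG is a cytosine followed by a guanine, the place where mammalian DNA is mostly methylated. In all, 1110 CpGs of the windows had at least 5 reads in any library, of 1521234 on the 19 autosomes, and 390 had so many in every one, of 568553. The 390 shared CpGs are the base of the levels below, except in the fits of fewer libraries and where an alternative is named. The fits of fewer libraries used the CpGs read in those libraries. The number of shared CpGs was 46 for Dnmt1, 95 for Dnmt3a, 36 for Dnmt3b, 57 for Uhrf1, 33 for Tet1, 46 for Tet2 and 77 for Tet3.

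Dnmt1 copies methylation onto new DNA strands after replication, and Uhrf1 guides it to sites methylated on the old strand alone. Dnmt3a and Dnmt3b place methylation on DNA that has none. Tet1, Tet2 and Tet3 oxidise 5-methylcytosine, the first step of its removal. In blood, loss of Dnmt3a or Tet2 is known to favour self-renewal of stem cells over differentiation.

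The data are reduced representation bisulfite sequencing (RRBS) of haematopoietic stem cells (HSCs) of C57Bl/6 mice. The method reads CpG-rich restriction fragments after bisulfite has turned unmethylated cytosines into a base read as thymine, so a level is the percent of reads that stayed cytosine. The 25 libraries fell into 12 groups. For transplanted HSCs, taken from bone marrow, the donors were young, with 10 cells given for 3 libraries, 50 for 1 and 500 for 1, or old, with 10 cells given for 2 libraries, 50 for 1 and 500 for 3. HSCs from the 5-fluorouracil (5-FU) experiment came from bone marrow of mice aged 3.5 months plus 6 further months with 0 (n = 3), 2 (n = 3) or 4 (n = 2) doses. 5-FU kills dividing cells, after which surviving HSCs enter the cell cycle. The other groups were HSCs of fetal liver at e14.5 (n = 2) and of bone marrow at 3.5 months (young, n = 2) and 25 months (old, n = 2). All groups shared the strain. The labels give neither the host of the transplants nor sex, and do not say whether replicates came from separate mice, so the p-values measure the spread between these libraries, which may be technical. RRBS holds no transcripts, so the identity of the cells rests on the labels. Libraries held 22835325 to 105187091 reads, and the median depth of a CpG was 10 to 54 reads. Groups of 1 library have no replicate error.

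CpGs were kept apart by their mean level over the 25 libraries: low under 20%, high at 80% or more, and between. Of the 390 CpGs, 290 were low, 24 between and 76 high. Low CpGs thus made up 74.4% of the CpGs of the 7 genes, against 53.2% of all autosomal CpGs, and high CpGs 19.5%, against 35.5%. By the share of low CpGs, Dnmt1 stood at one end (45.7%), with 21 low and 22 high CpGs. Dnmt3b stood at the other (83.3%), with 30 low and 5 high. The share of high CpGs was smallest in Dnmt3a, at 8.42%. Tet2 had 37 low and 6 high, Tet3 61 and 15, Tet1 22 and 9, Uhrf1 43 and 11, and Dnmt3a 76 and 8.

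In the 6 genes whose start sites could be placed, 200 of 268 low CpGs lay within 1000 bp of one. RefSeq promoters, 250 bases before to 50 bases after a start, were laid on the mm9 CpG positions by the spacing of their CpGs, and 8 start sites of 6 genes found 1 place each, with at least 10 CpGs matched. The other start sites of Dnmt1 and Uhrf1 and that of Tet1 found none. The promoters of Dnmt1, of both ends of Dnmt3a and of Tet2 are shown because they hold low CpGs and differ most in how many CpGs they carry. They are from RefSeq on GRCm38.p6, 5′ to 3′ on the strand of the gene, with each CpG that was covered in the files in capitals.
Dnmt1, chr9:20952574-20952873, minus strand: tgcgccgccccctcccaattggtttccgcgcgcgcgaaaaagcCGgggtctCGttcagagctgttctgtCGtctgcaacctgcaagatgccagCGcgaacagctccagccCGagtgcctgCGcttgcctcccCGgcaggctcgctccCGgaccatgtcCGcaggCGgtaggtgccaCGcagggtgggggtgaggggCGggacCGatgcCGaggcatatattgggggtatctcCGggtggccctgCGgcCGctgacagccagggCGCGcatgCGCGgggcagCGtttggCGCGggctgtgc
Dnmt3a, first start, chr12:3806730-3807029, plus strand: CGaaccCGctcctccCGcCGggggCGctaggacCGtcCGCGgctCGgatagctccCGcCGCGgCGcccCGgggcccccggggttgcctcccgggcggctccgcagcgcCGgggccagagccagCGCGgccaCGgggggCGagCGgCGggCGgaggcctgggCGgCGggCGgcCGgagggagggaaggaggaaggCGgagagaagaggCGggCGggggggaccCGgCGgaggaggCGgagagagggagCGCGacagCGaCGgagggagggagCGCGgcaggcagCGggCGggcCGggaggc
Dnmt3a, internal start, chr12:3891494-3891793, plus strand: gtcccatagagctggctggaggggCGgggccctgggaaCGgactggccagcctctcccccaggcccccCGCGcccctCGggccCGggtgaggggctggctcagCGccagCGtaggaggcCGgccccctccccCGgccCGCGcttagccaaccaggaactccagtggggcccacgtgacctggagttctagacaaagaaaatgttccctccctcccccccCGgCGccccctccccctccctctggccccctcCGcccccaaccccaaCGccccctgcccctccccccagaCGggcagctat
Tet2, chr3:133544341-133544640, minus strand: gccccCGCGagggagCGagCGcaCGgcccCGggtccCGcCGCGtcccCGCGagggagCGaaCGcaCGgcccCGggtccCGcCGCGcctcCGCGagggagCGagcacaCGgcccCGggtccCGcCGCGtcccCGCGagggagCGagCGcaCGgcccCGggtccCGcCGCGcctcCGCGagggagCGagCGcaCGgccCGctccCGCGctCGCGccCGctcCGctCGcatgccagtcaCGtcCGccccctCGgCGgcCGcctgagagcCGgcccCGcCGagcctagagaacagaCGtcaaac

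The Tet2 promoter carries 57 CpGs in 300 bases, all of them covered, and only 0.152% of 32851 RefSeq mouse promoters of that length hold as many or more. The first Dnmt3a promoter has 46 CpGs, 41 of them covered, a number that 1.65% of promoters reach. Dnmt1 has 33, of which 24 were covered, a number that 8.56% reach. The internal Dnmt3a promoter, from which a shorter form of the enzyme is made, has 18, of which 17 were covered, and 29.7% of promoters hold as many. The letters CCGG (a palindrome, so the same on both strands), at which RRBS commonly cuts, occur 5 times in the Tet2 promoter, 8 times in the first and 4 times in the internal Dnmt3a promoter and 4 times in that of Dnmt1. Over all promoters 52.8% hold CCGG at least once.

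The placed promoters had low mean levels in every group. Averaged over its shared CpGs, the Tet2 promoter (27 CpGs) had 0% to 1.37% over the 25 libraries, the first Dnmt3a promoter (25 CpGs) 0.0367% to 1.61%, and the Dnmt1 promoter (15 CpGs) 0% to 1.79%. The Dnmt3b promoter (11 CpGs) reached 3.65% at most, that of Uhrf1 (13 CpGs) 4.43% and that of Tet3 (15 CpGs) 2.06%. Another start of Dnmt3a close to the first (7 CpGs) reached 3.17%. A long non-coding RNA gene, B230319C09Rik, starts within the Tet3 promoter in the other direction, and its promoter (18 CpGs) reached 1.69%. The Tet1 promoter found no unique place on mm9, but the tile of 1000 bp with most of its low CpGs, from 62349001 on chromosome 10, held 19 CpGs and averaged 0% to 1.61% in the 12 groups.

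The internal Dnmt3a promoter had the highest single-library value of the placed promoters. Its 4 shared CpGs averaged 2.89% ± 2.24 over the 25 libraries (SD), with a highest value of 11.1%. One CpG, 31 bases before the start, carried most of it: it averaged 8.25% over all libraries, and it was 4.35% and 44.4% in the 2 libraries with 4 doses of 5-FU, against 7.69%, 13.9% and 8.33% with 0 doses, so those groups overlapped and 1 library held the high value. In old HSCs it had 10.5% and 20.5%, against 4.05% and 8.05% in young HSCs. Its depth was as low as 18 reads in a library, so single values of this CpG are coarse, and the tile that holds it was called in no comparison.

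No high CpG lay within 1000 bp of a placed start in any of the 6 genes. Within that distance lay 21 of 21 low CpGs of Dnmt1, 71 of 76 of Dnmt3a, 30 of 30 of Dnmt3b and 37 of 37 of Tet2. The windows of Uhrf1 and Tet3 held another low stretch, and whether it belongs to these genes was not determined. Only 16 of 43 low CpGs of the Uhrf1 window lay near its placed start. Another 25 lay in the tile from 56465001 on chromosome 17, a median of 21.8 kb downstream. For Tet3, 25 of 61 were near the start, and 36 lay in the tile from 83406001 on chromosome 6, 14.7 kb upstream. Those tiles averaged 0% to 1.96% and 0.0804% to 1.42% in the 12 groups.

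**Figure D1:**
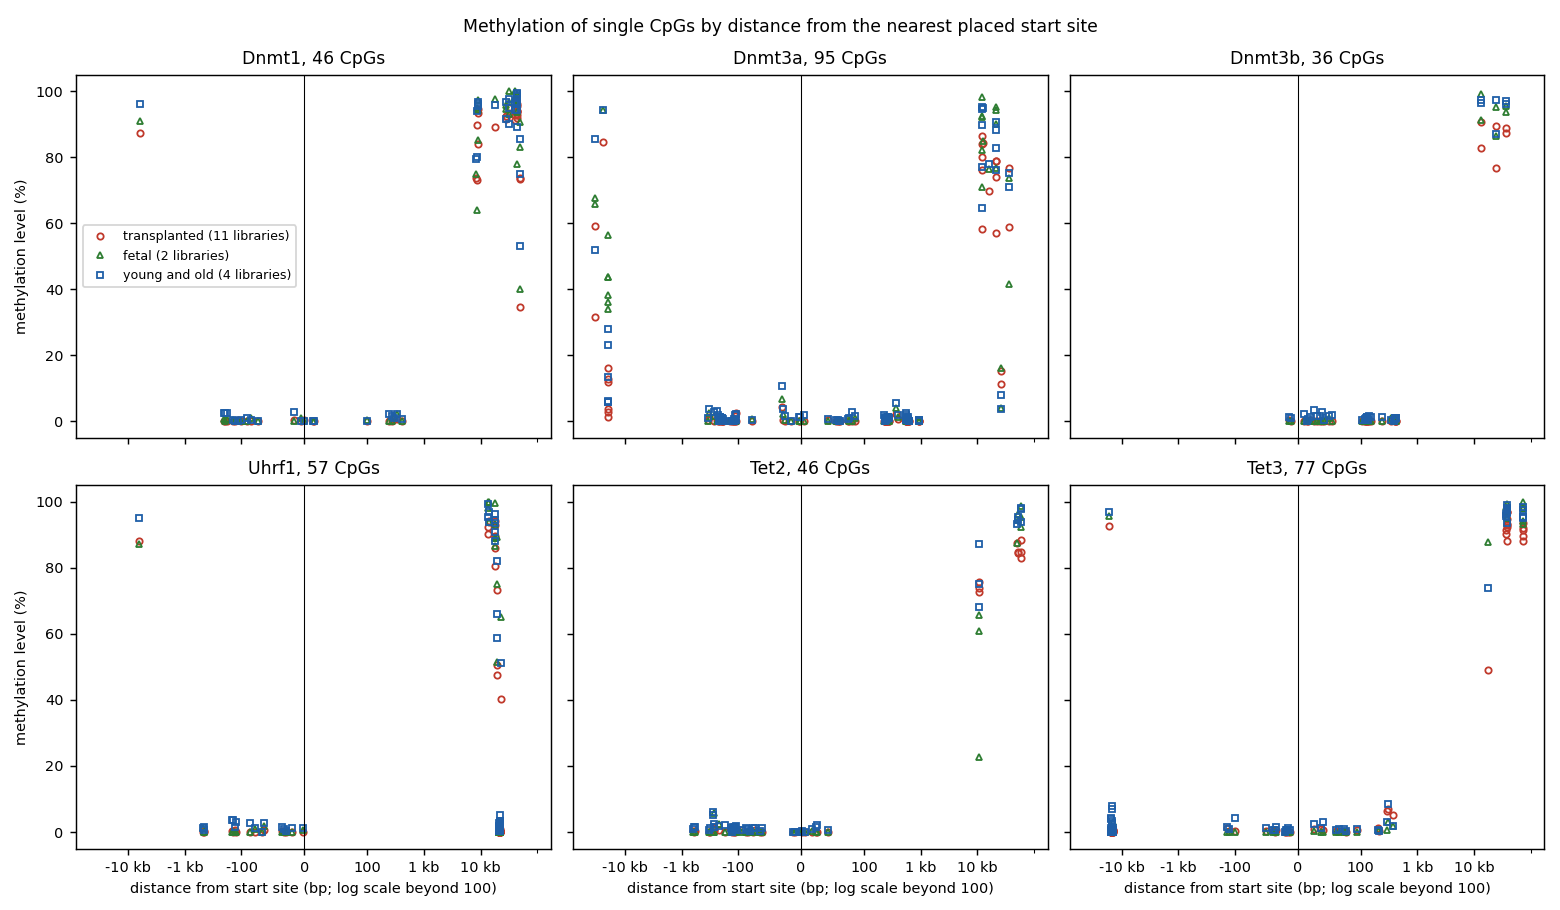
Each point is 1 CpG of 1 gene, plotted by its distance in bases from the nearest placed start site (log scale beyond 100 bases) and its mean level in percent, in transplanted (11 libraries), fetal (2 libraries) and young and old HSCs (4 libraries). Points within 1000 bp of a start lie near 0%, and the high CpGs all lie farther away.

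Of the 290 low CpGs, 5 had a group mean of 20% or more in any of the 12 groups, all in Dnmt3a. The share of all autosomal low CpGs with such a group mean was not counted. Counted by library, 11 of the 290 reached 20% or more in any library, or 3.79%, against 11.6% of all autosomal low CpGs. The 7 of these in Dnmt3a include CpGs of the tile described below. Per gene and group the low CpGs averaged between 0% and 2.25%. Old HSCs had the upper end for Uhrf1, with 2.25%, against 1.14% in young HSCs, and for Tet3, with 1.95% against 0.93%. By gene, young HSCs had 0.62% to 1.40%, those with 0 doses 0.713% to 1.47% and old HSCs 0.992% to 2.25%. The fetal, 2-dose, 4-dose and transplanted groups had at most 0.868% except for Dnmt3a in fetal HSCs and after 50 old cells and Tet1 after 500 old cells. All autosomal low CpGs lay at 1.73% for young, 2.62% for old and 1.86% for 0-dose libraries, and at 1.21% to 1.73% in the other groups. In Dnmt3a the highest of the 12 group means was the fetal one, at 2.03%.

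**Figure D2:**
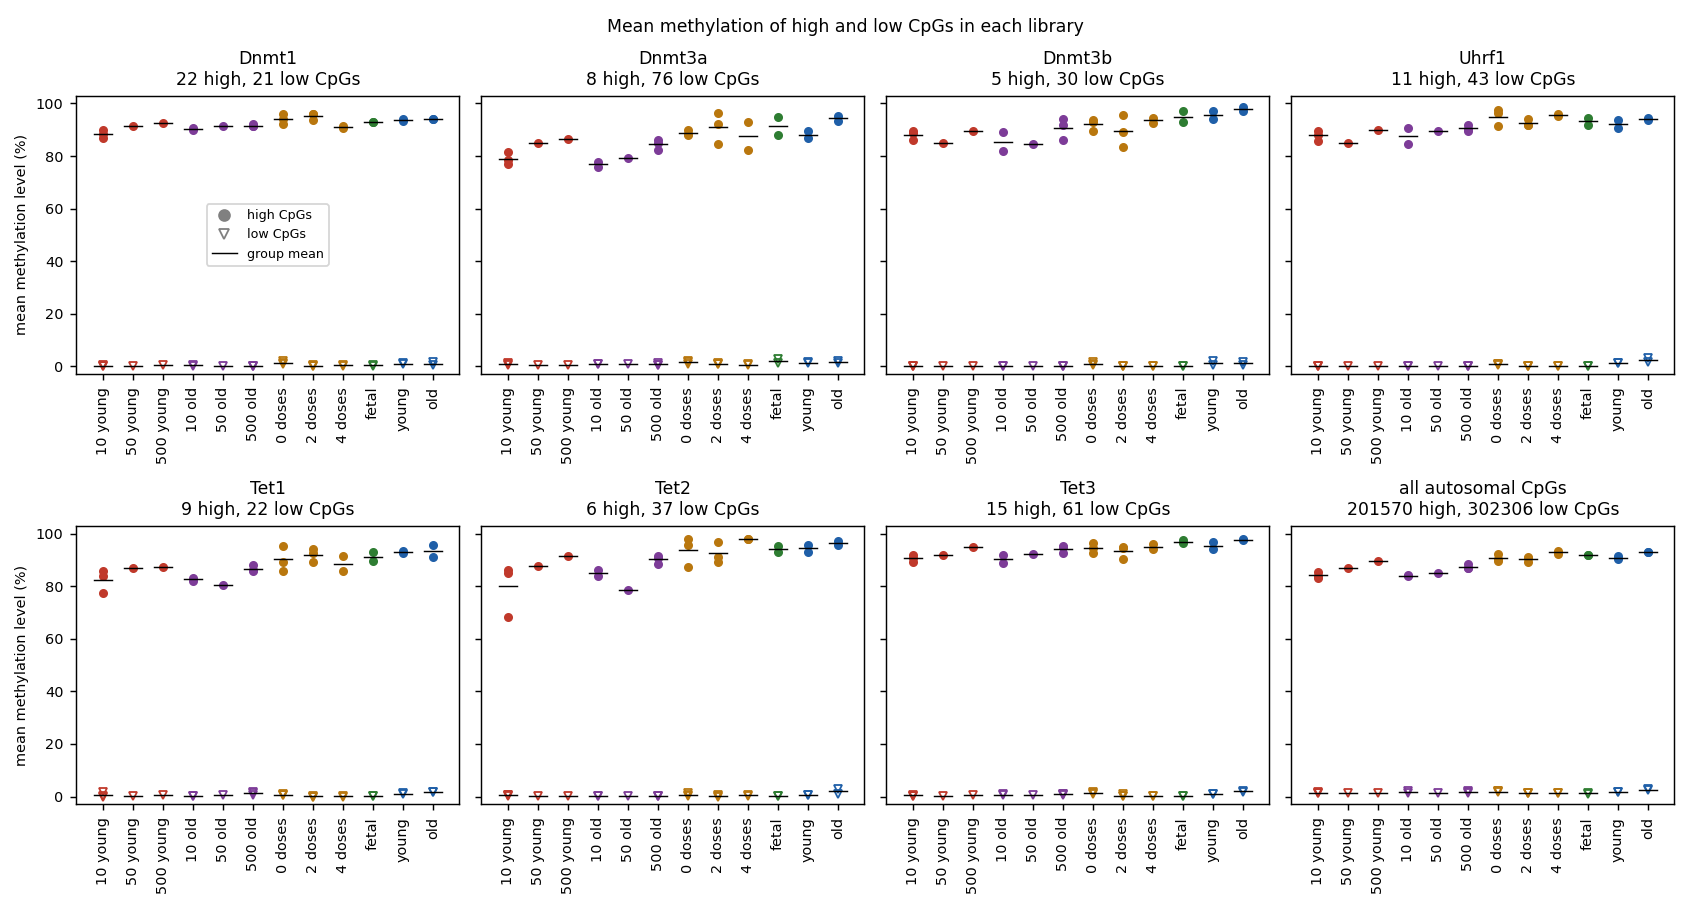
Points are libraries, with the mean level in percent of the high CpGs (filled circles) and the low CpGs (open triangles) of each gene and of all autosomes, by group; bars are group means, and 10, 50 and 500 are the numbers of transplanted cells. Low CpGs lie near 0% in every group, while high CpGs lie lower in the transplanted libraries, for example 76.8% for Dnmt3a after 10 old cells against 94.3% in old HSCs.

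High CpGs were lower after transplantation in each of the 7 genes. The difference below is transplanted minus untransplanted, averaged over both donor ages with libraries weighted equally. It was -10.2 points for Tet2, -9.88 for Dnmt3a, -8.97 for Dnmt3b, -8.93 for Tet1, -4.68 for Uhrf1, -4.42 for Tet3 and -3.31 for Dnmt1. All autosomal high CpGs were lower too, by a difference of -6.04 points, so 4 genes lay beyond that value and 3 short of it. Counted by CpG, 70 of 76 high CpGs of the 7 genes were lower (92.1%), against 87.3% of all autosomal high CpGs. These shares are a description, since neighbouring CpGs share reads and no test was made on the members together.

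Dnmt3a, one of the enzymes that place new methylation, had 8 high CpGs. Their mean level was 78.5%, 77.1% and 81.6% after 10 young cells, 85.0% after 50 and 86.3% after 500, against 86.8% and 89.5% in young HSCs. It was 77.7% and 75.9% after 10 old cells, 79.1% after 50 and 86.3%, 82.3% and 84.9% after 500, against 93.5% and 95.2% in old HSCs. All 11 transplanted libraries lay below all 4 young and old libraries, as they did for all autosomal high CpGs, with 83.2% to 89.6% against 90.2% to 93.0%. With 10 old cells the difference was -17.5 points, against -8.88 for all autosomal high CpGs in the same comparison. The 5-FU and fetal libraries had 82.2% to 96.5% and overlapped both.

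Tet2, the eraser most often mutated in ageing human blood, had 6 high CpGs. They averaged 68.3%, 86.3% and 85.2% after 10 young cells, 87.8% after 50 and 91.7% after 500, against 93.2% and 95.7% in young HSCs. With old donors the values were 84.1% and 86.1% for 10 cells, 78.8% for 50 and 91.7%, 88.4% and 90.9% for 500, against 97.3% and 95.5% in old HSCs. Again, as over all autosomal high CpGs, no transplanted library reached the young and old ones. The mean after 10 young cells was 79.9%, a difference of -14.52 points, against -6.71 for all autosomal high CpGs. The lowest value, 68.3%, belongs to the first library of that group, and without it the difference was -8.67 points.

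Tet1, with 9 high CpGs, had 77.3% to 88.2% (median 85.8%) in the 11 transplanted libraries, against 91.3% to 95.6% in young and old ones. Dnmt3b, with 5, had 81.8% to 93.9% (median 88.7%), against 94.2% to 98.6%. Dnmt1, the maintenance enzyme, had 22 high CpGs and moved least, with 86.7% to 92.6% (median 91.3%), against 93.2% to 94.0%. These 3 genes too, like all autosomal high CpGs, showed no overlap between transplanted libraries and young and old ones. Tet3 and Uhrf1 did overlap. Tet3 had 88.8% to 95.2% (median 91.9%) after transplantation, against 94.1% to 97.9%, with 8 of 11 transplanted libraries below all young and old ones. For Uhrf1 the levels were 84.7% to 91.8% (median 89.6%), against 90.8% to 94.4%, with 10 of 11 below.

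The number of transplanted cells ordered the high CpGs in the same way in every gene at its ends. After 10 young cells the mean was below that after 500 in 7 of 7 genes, and after 10 old cells likewise in 7 of 7. The step between 10 and 50 cells was less regular, with 5 of 7 genes lower after 10 young and 4 of 7 after 10 old cells. Groups of 50 cells and the 500 young cells are single libraries, and all genes were read in the same libraries. All autosomal high CpGs had 84.3%, 87.1% and 89.6% after 10, 50 and 500 young cells and 84.1%, 84.9% and 87.5% after 10, 50 and 500 old cells, so the order is not particular to these genes. No tile on any autosome was called between 10 and 500 old cells by the quasi-binomial test described next, with 1584 at an unadjusted p under 0.05, or by limma.

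For the test, the shared CpGs were summed into tiles of 1000 bp with at least 3 CpGs, 31 of which lay in the windows of the 7 genes, among 53794 on all autosomes. Their methylated and total reads went into a quasi-binomial model across all tiles, and calls asked for a Benjamini-Hochberg adjusted p under 0.05 and a change of 10 points or more. Between transplanted and untransplanted HSCs, with donor age as a covariate, 4 of the 31 tiles were called lower and 0 higher. Over all tiles 12.5% were called lower and 0.807% higher, so 4 of 31 is near the background. Limma on the same tiles also called 4 lower, beside 12.6% over all tiles, and the unadjusted p was under 0.05 for 18, beside 51.7%. By level, 3 of 5 tiles between 20% and 80% were called and 1 of 11 at 80% or more, where the shares over all tiles were 35.6% and 15.4%. None of the 15 tiles under 20% was called, beside 0.333% called lower and 0.319% higher over all tiles of that level.

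The called tile of Dnmt3a, from 3913001 to 3914000 on chromosome 12, held 4 CpGs 21.3 kb downstream of the internal start. Its levels were 70.5%, 62.6% and 76.7% after 10 young cells, 78.3% after 50 and 75.0% after 500, against 78.9% and 83.4% in young HSCs. With old donors they were 70.7% and 65.6% for 10 cells, 72.5% for 50 and 77.2%, 73.1% and 75.7% for 500, against 87.3% and 87.8% in old HSCs. No transplanted library reached the young and old ones, and the difference was -11.8 points (adjusted p = 0.00548, quasi-binomial test).

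In Tet1 the tile from 62295001 to 62296000 on chromosome 10, with 3 CpGs, was lower by a difference of -13.7 points (adjusted p = 0.00972, quasi-binomial test). It had 57.4% to 82.7% after young cells and 65.1% to 83.1% after old cells, against 87.0% and 92.2% in young and 79.3% and 90.1% in old HSCs. The groups overlapped, since 1 old library lay below 4 of the transplanted ones. In the Dnmt1 window, the tile from 20707001 to 20708000 on chromosome 9 held 3 CpGs 49.8 kb downstream of the start. Whether that is inside the gene was not determined. The tile had 52.9% to 68.6% after young cells and 56.5% to 70.1% after old cells. Young HSCs had 71.8% and 70.2% there and old HSCs 71.4% and 74.2%, all above the transplanted libraries, the nearest by less than 1 point. The difference was -10.9 points (adjusted p = 0.0293).

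The called tile of Tet2, from 133149001 to 133150000 on chromosome 3, held 3 CpGs 58.1 kb downstream of the start. It had 51.6%, 92.3% and 90.3% after 10 young cells, 88.1% after 50 and 87.3% after 500, against 95.2% and 95.3% in young HSCs. After old cells it had 83.7% and 89.0% for 10, 75.8% for 50 and 94.7%, 92.7% and 92.4% for 500, against 99.4% and 96.0% in old HSCs. The difference was -11.5 points (adjusted p = 0.0337, quasi-binomial test). Without the first library of 10 young cells, the one at 51.6%, it was -7.68 points and not called. Nor was it called, by its adjusted p, without young replicate 1 (-11.5 points), young replicate 2 (-11.4), old replicate 1 (-10.6) or old replicate 2 (-12.3). The Dnmt1 tile likewise was not called when any 1 of those 4 libraries was left out, at -10.5, -11.3, -11.6 and -10.2 points. The Tet1 tile was not called without young replicate 2 (-12.4 points). The Dnmt3a tile stayed called whichever single library was left out. Set against the median of all tiles of their level class, the 4 differences were -4.51 points for Dnmt3a, -6.41 for Tet1, -3.63 for Dnmt1 and -5.97 for Tet2, all under the size asked for.

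**Figure D3:**
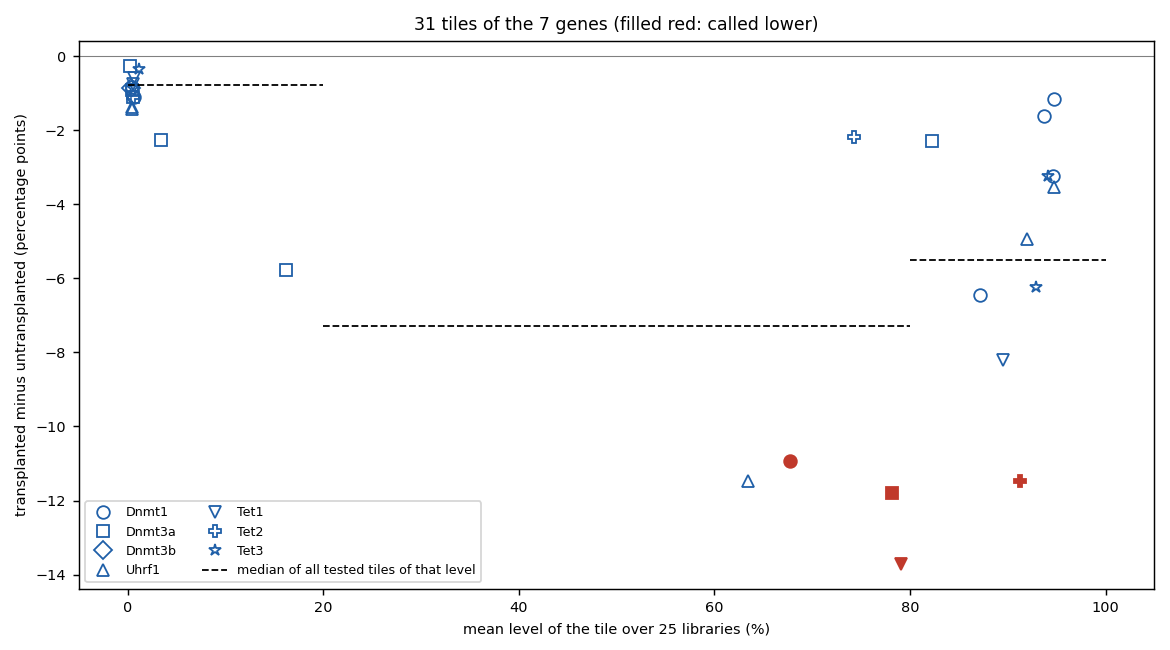
Each point is 1 of the 31 tiles, with its mean level over 25 libraries in percent on the horizontal axis and transplanted minus untransplanted in percentage points on the vertical; symbols are genes, filled red tiles were called, and dashed lines are the medians of all tested tiles of that level. The 4 called tiles lie at -10.9 to -13.7 points, while tiles under 20% lie between -5.79 and -0.26 points.

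Set against each donor group alone, no tile of the 7 genes was called with the fit of all 25 libraries. After 10 young cells against young HSCs, 0 of 31 were called, with 6 at an unadjusted p under 0.05, all lower, beside 24.1% of all tiles at that p, and 4.1% called lower and 0.513% higher. After 10 old cells against old HSCs it was 0 of 31, with 9 at an unadjusted p under 0.05, beside 27.7% at that p, and 5.95% called lower and 0.231% higher. Limma called 1 there, the Dnmt3a tile from 3903001, beside 9.29% lower over all tiles. After 500 old cells against old HSCs it was 0 of 31, with 4 at an unadjusted p under 0.05, beside 18.6% at that p, and 0.933% called lower and 0.1% higher. Between 10 and 500 old cells it was 0 of 31, with 0 at an unadjusted p under 0.05, beside 2.94% at that p and 0% called in either direction. Limma called 0 in the other 3 of these comparisons. These shares over all tiles depended on single libraries: after 10 young cells 2208 tiles were called lower, but 11 and 6 without young replicate 1 and replicate 2, and 513, 1610 and 617 without replicate 1, 2 and 3 of 10 young cells. After 10 old cells the number was 3202, but 7 and 25 without old replicate 1 and replicate 2, and 42 and 308 without replicate 1 and 2 of 10 old cells. After 500 old cells it was 502, but 0 and 15 without old replicate 1 and replicate 2, and 58, 381 and 213 without replicate 1, 2 and 3 of 500 old cells.

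A fit of the transplanted, young and old libraries alone covered 49 tiles of the 7 genes, since CpGs had to be read in 15 libraries only. Between single groups it left fewer residual degrees of freedom than the fit of all 25 libraries. It called 4 lower after 10 young cells, beside 17.4% lower and 1.12% higher over all tiles. After 10 old cells it called 8 lower, beside 23.1% and 0.569%, and after 500 old cells 1 lower, beside 8.02% and 0.382%. Between transplanted and untransplanted HSCs it called 5 lower, beside 19.5% and 0.771%. In each case the share of the 49 tiles was below that of all tiles, and none was called higher. After 10 young cells the called tiles were those from 20748001 (Dnmt1), 62266001 and 62295001 (Tet1) and 3907001 (Dnmt3a). After 10 old cells they were those from 153512001 (Dnmt3b), 133149001 (Tet2), 83319001 (Tet3) and 20706001 (Dnmt1). The others after 10 old cells were those from 3903001 and 3913001 (Dnmt3a) and 56442001 and 56466001 (Uhrf1). Between transplanted and untransplanted HSCs, the Dnmt3a and Tet2 tiles called with all 25 libraries missed the size in this fit, at -9.71 and -7.94 points. They held 5 and 6 CpGs there. Both were among the 8 tiles it called lower after 10 old cells.

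Of the tiles this fit added, the one upstream of the placed Uhrf1 start, from 56442001 to 56443000 on chromosome 17, had 3 CpGs and 30 to 137 reads per library. Its level was 41.6%, 31.9% and 29.4% after 10 young cells, 43.3% after 50 and 31.4% after 500, against 53.2% and 57.6% in young HSCs. After old cells it was 38.3% and 53.2% for 10, 43.8% for 50 and 25.0%, 44.1% and 29.6% for 500, against 76.9% and 66.7% in old HSCs. The difference was -26.3 points (adjusted p = 0.0013, quasi-binomial test), and 1 transplanted library of old donors, at 53.2%, came level with the lower young one. The tile lies beside the low CpGs of the placed Uhrf1 promoter, in the next 1000 bp, which had group means of 0% to 0.226% after transplantation, against 1.08% in young and 1.98% in old HSCs. On GRCm38.p6 another RefSeq promoter of Uhrf1 begins at 56303087, before the placed one at 56304063. It found no place on mm9, so the tile may hold that start.

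In the Dnmt1 window, the added tile from 20706001 to 20707000, with 3 CpGs and 27 to 150 reads, lies next to the called tile given above. It had 7.55% to 35.3% after young cells and 7.41% to 31.2% after old cells, against 31.6% and 39.5% in young and 51.3% and 44.7% in old HSCs. The difference was -21.1 points (adjusted p = 0.00533, quasi-binomial test), with an overlap between 10 young cells and young HSCs. A Dnmt3a tile from 3907001, with 3 CpGs and 25 to 148 reads, had 70.5% to 92.9% after young cells and 72.0% to 94.0% after old cells, against 94.6% and 98.1% in young and 97.1% and 91.9% in old HSCs. The difference was -13.7 points (adjusted p = 0.00434, quasi-binomial test), and 2 transplanted libraries lay above the lower old one.

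No low tile passed the size asked for. The 15 low tiles differed by -5.79 to -0.26 points in transplanted against untransplanted HSCs, the first being a Dnmt3a tile described below. The Uhrf1 promoter tile from 56443001, singled out after its values were seen, with 16 CpGs and 343 to 1988 reads per library, had a difference of -1.43 points and the tile from 56465001 one of -1.36 points. Their adjusted p of 0.0178 and 0.0230 passed the threshold of the quasi-binomial test, but the sizes did not. The median difference of all tiles under 20% was -0.776 points, and 0.333% of them were called lower and 0.319% higher.

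Between young and fetal HSCs the quasi-binomial fit of all 25 libraries called 0 of the 31 tiles, with 3 at an unadjusted p under 0.05, beside 9.16% of all tiles at that p, and 1.42% called lower and 0.695% higher, and limma called 0. Between old and young HSCs it called 0, with 2 at an unadjusted p under 0.05, beside 5.43% at that p, and 0.0167% called lower and 0.167% higher, and limma called 0. A fit of the 6 fetal, young and old libraries alone covered 62 tiles. So few libraries leave few residual degrees of freedom, and the spread of a single tile hardly enters the test. It called 5 lower and 1 higher in young against fetal HSCs, beside 4% lower and 2.06% higher over all tiles. In old against young HSCs it called 4 higher and 0 lower, beside 3.54% higher and 0.225% lower.

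One stretch of Dnmt3a, singled out after its values were seen, was highest in fetal HSCs, but the fit of all 25 libraries did not call it. The tile from 3871001 to 3872000 on chromosome 12 held 6 CpGs between positions 3871756 and 3871918, 64.8 kb downstream of the first start and 19.9 kb upstream of the internal one, so within the gene. Its level was 32.5% and 53.4% in fetal HSCs, 14.8% and 18.8% in young and 17.0% and 5.79% in old ones. It was 21.1%, 27.3% and 22.2% with 0 doses of 5-FU, 20.7%, 15.3% and 21.7% with 2 and 15.6% and 26.3% with 4. After transplantation it was 12.5%, 5.24% and 3.61% with 10 young cells, 7.53% with 50 and 6.11% with 500, and 12.5% and 4.19% with 10 old cells, 9.90% with 50 and 10.3%, 14.46% and 6.35% with 500. Both fetal libraries lay above every one of the other 23, and the transplanted libraries lay below every 5-FU library. How many of all tiles set the fetal libraries apart in this way was not counted.

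Young minus fetal was -26.2 points at this tile, with 16.8% ± 2.88 in young and 43.0% ± 14.8 in fetal HSCs (SD, n = 2 each). The adjusted p was 0.055 in the quasi-binomial fit of all 25 libraries and 0.00989 in that of the 6 fetal, young and old libraries, and over all alternatives it ran from 0.00989 to 0.565, with 0.150 by limma. With at least 10 reads per CpG it was called too, at -27.7 points. The fetal libraries were far apart, and the difference was -36.6 points without fetal replicate 1 and -15.7 points without fetal replicate 2. Transplanted minus untransplanted was -5.79 points (adjusted p = 0.044), under the size asked for. The 6 CpGs did not have 1 level. In fetal HSCs they ran from 33.9% to 56.3%, while in young HSCs the 3 inner ones, 3871809, 3871815 and 3871824, had 4.2%, 3.2% and 8.1% and the 3 outer ones 16.0% to 38.5%. These 3 inner CpGs belong to the low class by their mean over all libraries. Without them the low CpGs of Dnmt3a averaged 1.24% in young and 0.632% in fetal HSCs, against 1.40% and 2.03% with them. The promoter CpGs around the first start had 0.213% in fetal HSCs, 0.504% in young and 1.35% in old ones.

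**Figure D4:**
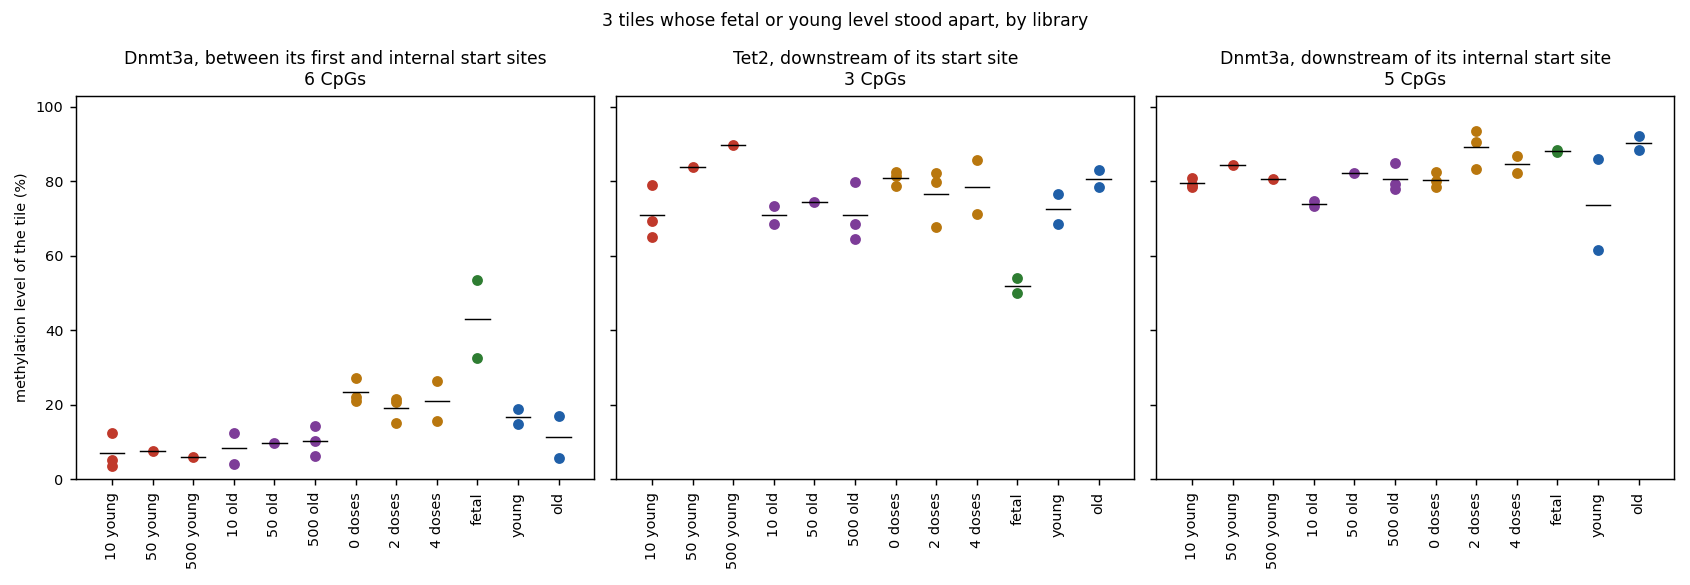
Points are libraries and bars group means of the level in percent of 3 tiles of Dnmt3a and Tet2, by group; 10, 50 and 500 are numbers of transplanted cells and doses are of 5-FU. Fetal libraries lie highest in the first panel, at 32.5% and 53.4%, and lowest in the second, at 54.0% and 50.0%; in the third, the 2 young libraries stand apart from each other, at 61.5% and 86.0%.

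Tet2 had the opposite order 10.7 kb downstream of its start. The tile from 133196001 to 133197000 on chromosome 3, with 3 CpGs, had 54.0% and 50.0% in fetal HSCs, 76.5% and 68.7% in young and 82.9% and 78.4% in old ones. The 5-FU libraries had 67.8% to 85.7% and the transplanted ones 64.6% to 89.7%, so that both fetal libraries lay below all 23 others. Young minus fetal was 20.5 points, with an adjusted p of 0.148 in the quasi-binomial fit of all 25 libraries. The next tile, from 133197001 to 133198000, with 4 CpGs and 125 to 265 reads, was tested in the fit of the 6 fetal, young and old libraries only. It had 67.1% and 65.9% in fetal, 94.4% and 89.7% in young and 91.7% in each old library. Young minus fetal was 25.5 points there, with an adjusted p of 0.000888 in that quasi-binomial fit, which hardly takes in the spread of a single tile. Both Tet2 tiles and the Dnmt3a tile above were singled out after their values were seen.

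The fit of the 6 fetal, young and old libraries called other tiles too. Of these, 4 had lower levels in young HSCs than in both fetal and old ones. Over all autosomal high CpGs, young HSCs were likewise below both, at 90.96%, where the fetal group had 91.93% and the old group 92.94%. The share of all tiles with this order was not counted. The Dnmt1 tile from 20741001, with 4 CpGs, had 90.0% in fetal HSCs, 70.3% in young and 91.5% in old ones. The Uhrf1 tile from 56458001, with 10 CpGs, had 87.7%, 72.0% and 89.2%. In Dnmt3b the tile from 153502001, with 4 CpGs, had 95.3%, 73.7% and 90.8%, and its young libraries lay at 82.7% and 64.6%. In Tet1 the tile from 62342001, with 7 CpGs, had 96.0%, 82.2% and 93.5%. The Dnmt1 and Uhrf1 tiles were called both in young against fetal and in old against young HSCs, with the young group shared by the comparisons. The old HSCs were further called higher than young ones at the Dnmt3a tiles from 3903001, with 90.2% against 73.8%, and from 3911001, with 97.1% against 73.1%. The tile from 3911001 had as few as 21 reads in a library.

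5-FU gave no call in the 7 genes with the quasi-binomial fit of all 25 libraries. HSCs with 2 doses against 0 doses had 0 of 31 tiles called, with 2 at an unadjusted p under 0.05, beside 8.05% of all tiles at that p, and 0.106% called lower and 0.208% higher, and limma called 0. With 4 doses against 0 doses it was 0 of 31, with 3 at an unadjusted p under 0.05, beside 12.5% at that p, and 0.143% called lower and 0.31% higher. Limma called 1 of them lower, the Tet1 tile from 62266001, with 82.4% after 4 doses, against 96.0% after 0, where limma's own shares over all tiles were 0.959% lower and 2.78% higher. HSCs with 0 doses against young HSCs, which are 6 months younger, had 0 of 31 called and 0 at an unadjusted p under 0.05, beside 8.18% at that p, and 0.173% called lower and 0.757% higher, and limma called 0.

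After 4 doses against 0 doses they differed by 4.38 points in Tet2, 1.60 in Dnmt3b, 0.46 in Uhrf1 and 0.45 in Tet3, and by -3.04 in Dnmt1, -1.60 in Tet1 and -1.24 in Dnmt3a. All autosomal high CpGs differed by 2.17 points. Only in Dnmt1 did the libraries of 4 and 0 doses not overlap, with 91.5% and 90.5% after 4 doses, against 95.8%, 92.1% and 94.2% after 0. Over all autosomal high CpGs they overlapped. After 2 doses against 0 doses the differences ran from -2.53 points in Uhrf1 to 2.12 in Dnmt3a, with an overlap of libraries in all 7 genes. All autosomal high CpGs differed by -0.43 points there, also with an overlap. The differences of both comparisons are small against single libraries. Leaving out any 1 library of the 2 groups kept the sign in 3 of 7 genes for 4 against 0 doses (Dnmt1, Dnmt3b and Tet2). For 2 against 0 doses it was kept in 2 of 7 (Dnmt1 and Uhrf1). Over all autosomal high CpGs the sign was kept for 4 against 0 doses. For 2 against 0 doses it turned without replicate 1 of 0 doses or replicate 2 of 2 doses. In Tet2 the 2 libraries of 4 doses had 98.2% each, against 95.7%, 87.5% and 98.2% after 0 doses.

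At the high CpGs, old minus young was 6.19 points in Dnmt3a, 2.33 in Dnmt3b, 2.32 in Tet3, 1.97 in Tet2, 1.68 in Uhrf1, 0.46 in Tet1 and 0.42 in Dnmt1, and 1.99 for all autosomal high CpGs. The old libraries lay above the young ones without overlap in Dnmt3a, Dnmt3b and Tet3, and likewise over all autosomal high CpGs. The sign was kept in 5 of 7 genes when any 1 library was left out, and over all autosomal high CpGs. It turned in Dnmt1 without young replicate 1 and in Tet1 without old replicate 2. Dnmt3a had 93.5% and 95.2% in old HSCs, against 86.8% and 89.5% in young HSCs. In young against fetal HSCs the differences ran from -3.25 points in Dnmt3a to 1.70 in Tet1, against -0.98 for all autosomal high CpGs, whose libraries did not overlap. Of the 7 genes, Dnmt1 alone showed no overlap, in the other direction, at 93.2% and 94.0% in young, against 93.0% and 92.8% in fetal HSCs. The sign was kept in 3 of 7 genes when any 1 library was left out (Dnmt1, Tet1 and Tet3), and over all autosomal high CpGs.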

How the data were processed

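The authors deposited 1 list of CpGs per library, holding position, strand, methylated over total reads and a whole-number score. On the files the authors' score equalled the methylated share, scaled up, and it stayed unused; the reads were taken as deposited. Per the submitters' processing notes the build is mm9. Aligner, caller, filters and duplicate handling: not given in the sources used here. Depths are of reads, not of molecules, since no molecular identifiers are named.

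The 7 genes, their windows and the tests were chosen with earlier results of these data known. Levels of CpG classes and promoters are means, over CpGs read at least 5 times in every library on the 19 autosomes, of the percent methylated. For a tile, the level is the percent methylated of the reads summed over such CpGs. Reads summed in tiles of 1000 bp with 3 or more such CpGs were fitted by a quasi-binomial model with 1 level per group (25 libraries, 13 residual degrees of freedom), with Williams weights, a dispersion moderated as in limma and held at 1 or more, and an F test with Benjamini-Hochberg adjustment over all tiles. Transplanted against untransplanted used 15 libraries with donor age as a covariate. Named tiles are, per gene, the one with most CpGs and those called; others are said to be singled out after their values were seen. The fits were tested on simulated reads. Alternatives are given in the closing section. Software was Python 3.11.15, numpy 2.4.6, scipy 1.17.1, pandas 2.3.3, R 4.3.3 and limma 3.58.1.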

Additional observations from a re-analysis of the deposited data

Results flagged for a closer look

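The Dnmt3a tile from 3903001 to 3904000 on chromosome 12, with 5 CpGs and 45 to 922 reads per library, went in opposite directions after 10 transplanted cells of the 2 donor ages. After 10 young cells its level was 81.0%, 79.1% and 78.4%, against 61.5% and 86.0% in young HSCs, a difference of 5.78 points. After 10 old cells it was 74.7% and 73.3%, against 92.1% and 88.3% in old HSCs, a difference of -16.2 points. It stands here because every library of 10 young cells lay above the mean of young HSCs and every library of 10 old cells below the mean of old HSCs; the difference between the donor ages was not tested. Of the young libraries, 1 lies below and 1 above every library of 10 young cells. Neither difference was called by the quasi-binomial fit of all 25 libraries; the one after old cells was called by limma and by the fit of the transplanted, young and old libraries.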

How the results depend on the processing

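The counts of called tiles of the 7 genes were recomputed under each alternative. Transplanted against untransplanted, where 4 tiles were called, had 2 of 19 with at least 10 reads per CpG (7.13% called lower over all tiles), 8 of 61 with at least 1 CpG per tile (29.1%), 0 of 31 at a difference of 20 points (1.69%) and 0 of 31 when each difference was set against the median of all tiles of its level class (3.44% lower, 1.55% higher). It had 4 of 39 with tiles of 500 bp (10.1% called lower over all tiles), 4 of 31 without CpGs over 500 reads (12.5%) and 4 of 31 with limma (12.6%). With the fit of fewer groups it had 5 of 49 (19.5%). It had 1 to 4 of 31 when a replicate was left out (10.2% to 13.5%). The lowest count was without young replicate 2, and 2 were called without young replicate 1, old replicate 1 or old replicate 2. Young against fetal had 1 of 19 with at least 10 reads per CpG (1.91%). The fits of fewer groups raised the count to 6 in young against fetal, 4 in old against young, 4 after 10 young cells, 8 after 10 old cells and 1 after 500 old cells. With limma, 1 tile was called with 4 against 0 doses of 5-FU and 1 after 10 old cells. The fits of fewer groups held more tiles, but some tiles they called, such as the Dnmt3a tile from 3871001, were already among the 31. Between single groups these fits also had fewer residual degrees of freedom. The cause of these changes was not tested. The other comparisons and alternatives gave 0.

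With the replicate number as a block the count was 4 of 31 in transplanted against untransplanted, beside 11.8% called lower over all tiles. It was 0 in the other comparisons. Deviations of libraries with the same number correlated between -0.073 and 0.136, so the numbers do not pair the libraries.

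Between transplanted and untransplanted HSCs, the high CpG differences of the 7 genes kept their sign under every alternative run; leaving out a replicate moved none by more than the spread between replicates, and that of Tet1 moved by more, to -6.18 points, with all CpGs of 5 or more reads in the library. Depth limits single CpGs and tiles: the tiles of 3 CpGs rest on as few as 18 reads in a library. In the other comparisons of high CpGs the sign turned for some genes when 1 library was left out, an alternative chosen after seeing the data.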
